A study of Lates calcarifer with 8 samples.

Results

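The transcripts described here are the 60 whose signal in the brain was set furthest apart with every male above every female. Brains were taken whole with the pituitary from 4 female and 4 male Asian seabass (Lates calcarifer), all adults of 5 years that had received no treatment. The females carried ovaries at the stage labelled F3 and the males testes at the stage labelled M3. Each fish had its own 1-colour array, so n = 4 per sex throughout. Because the tissue was taken whole, fewer cells of a type and less RNA per cell cannot be told apart in any of these values.

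The Asian seabass is a sequential hermaphrodite in which most fish mature as males and later become females. In fishes the hypothalamus and the pituitary drive the gonads through gonadotropin-releasing hormone and the gonadotropins, and sex steroids from the gonads act back on the brain. The fish brain itself makes oestrogen with the enzyme aromatase in radial glia.

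The 60 were chosen by measured values. Of 60080 probes on the array, 59780 lay on 1 spot only, 59490 of these had no spot marked non-uniform, and 27561 were also well above background on all 4 male arrays. Below, above background is short for this flag of the software, and a reading without it is not thereby absent. A value is the log2 of the processed spot signal minus the log2 of the same array's 75th percentile, so 0 marks a signal equal to that percentile. The gap is the lowest male value minus the highest female value, and the 60 probes with the widest gap are the members. Since the gap chose them, the separation of the sexes in these members is a description and carries no test. Among all eligible probes 714 had a gap above 0, which is 2.59%.

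No gene name can be attached to the members. The scanner tables pair each probe with a target identifier that starts with SBRGG, and none of these identifiers occurs in the RefSeq gene table of the species that was used here. Each of the 60080 targets had at most 1 probe, so no second probe can be set beside a member. Target numbers of the 60 ran from 1937 to 61074, and no 2 members were closer than 25 in number. The transcripts are therefore named by target only, and no role is given to any of them. A probe's brightness also depends on the probe, so the signals below compare animals within a probe and do not rank transcripts.

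Measures of whole arrays overlapped between the sexes. The 75th percentile of signal lay between 93.05 and 128.6 intensity units in females and between 105 and 123 in males, and 49.2% to 59.5% of spots were well above background in females against 55.0% to 58.2% in males. Female 2 had the lowest value of both measures. All arrays sat on 1 slide in 2 rows, each with 2 females and 2 males.

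Gaps of the members ran from 2.06 down to 0.39 on the log2 scale, with a median of 0.53. A gap over 1 was found in 8 members, 4 of them with no female well above background, and 35 exceeded 0.5. At the limit of 60 the gaps changed little. The last members, SBRGG_44819 and SBRGG_41766, had gaps of 0.390 and 0.389, and the first probes outside, SBRGG_38937 and SBRGG_40575, had 0.381 and 0.368. For the opposite direction the background flag was asked of all 4 female arrays instead. That left 25567 eligible probes, of which 470 had a gap of females above males, against 714 of 27561 for males above females. The 60 widest of these gaps ran from 3.97 to 0.48, with a median of 0.96.

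**Figure D1:**
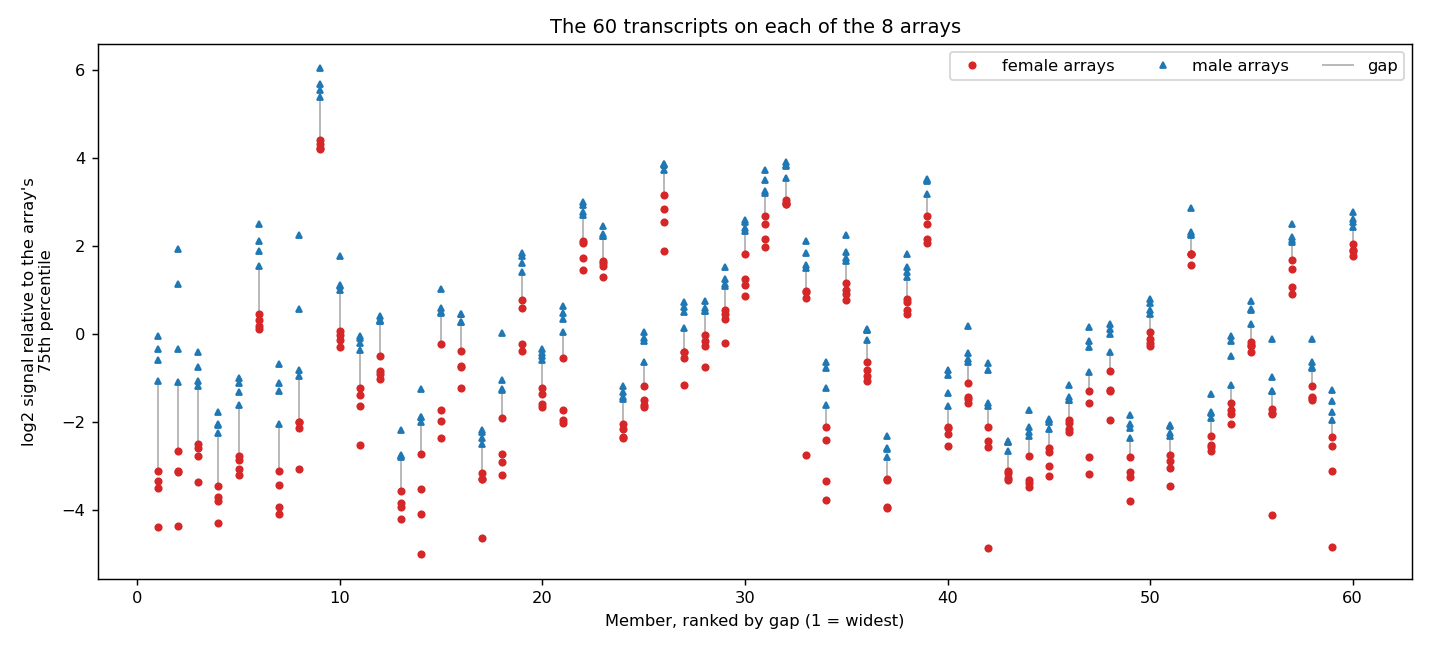
Signal of the 60 members on every array, in log2 relative to the array's 75th percentile, ordered by gap from 1 to 60. Circles are the 4 females, triangles the 4 males and grey lines the gap, which narrows from 2.06 to 0.39.

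Means of the measured signals differed by 0.67 to 3.72 on the log2 scale, male minus female, with a median of 1.15 over the 60, readings not above background included. The same median over all 27561 eligible probes was 0.04. A mean difference over 1 was seen in 40 members, and 1.38% of eligible probes had one. These values belong to the contrast that chose the members, and nothing is read from them. When the members with no female above background were set at their bounds, explained with their values, the median was 2.15-fold and 36 of the 60 exceeded 2-fold. With every female reading that was not above background raised in the same way, in partly measured members too, the median was 2.09-fold and 34 exceeded 2-fold.

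Detection in females divides the members into 3 sets. In 36 of the 60 all 4 females were well above background, in 16 this held for 1 to 3 females, and in 8 for none. Among eligible probes 88.8% were well above background in all 4 females and 0.0689% in none. The rule asks for this flag in males only and favours low female values, so nothing is read from the difference. The set measured on all 8 arrays had gaps from 0.39 to 1.09, the partly measured set from 0.39 to 1.32 and the set with no female from 0.45 to 2.06.

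**Figure D2:**
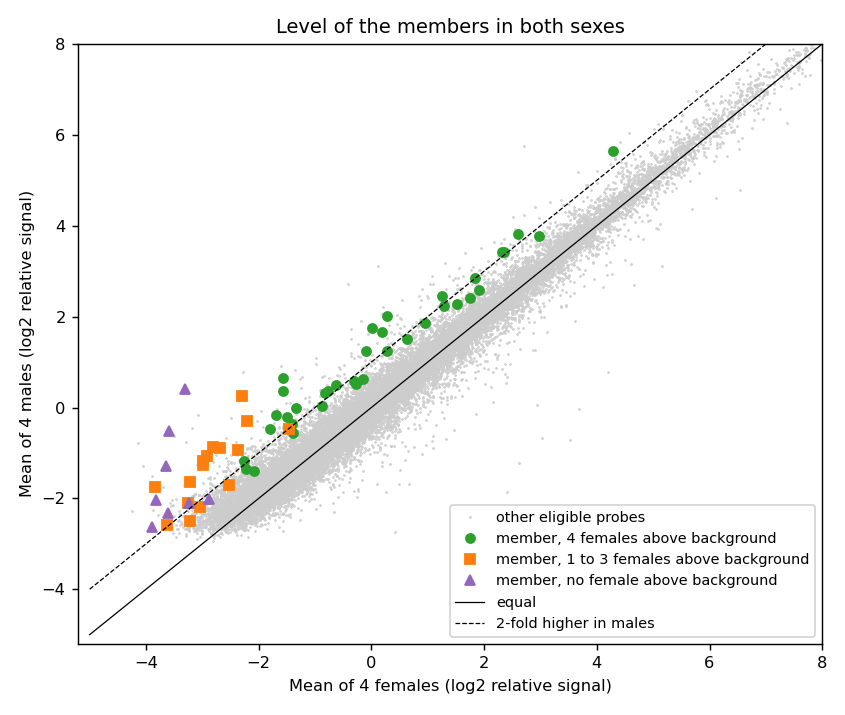
Mean of the 4 males against mean of the 4 females, in log2 relative signal, for the members and the other eligible probes with means up to 8. Members are marked by how many females were well above background, and the 8 with none lie at the left, at female means from -3.89 to -2.88.

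The 8 members without a female well above background are given first, in intensity units of processed signal. SBRGG_21703, the member with the widest gap, read 81.2, 86.6, 102 and 51.3 in males 1 to 4 and 6.02, 8.24, 14.7 and 12.7 in females 1 to 4. No male overlapped with the females, which holds for every member by the choice. Males averaged -0.51 ± 0.44 and females -3.59 ± 0.55 on the log2 scale (SD, n = 4 per sex). Since females were not well above background its fold is given as a bound. Each female array is taken at this probe's value or at the dimmest value well above background on that array, whichever is higher, before averaging. The bound holds for processed signal only and is not strict, since a spot's own detection limit may lie higher. By this bound the signal was 5.54-fold higher in males. Under normexp, another treatment of signal and background given below, the difference was 1.13 on the log2 scale.

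SBRGG_59850 had a wide spread among males. Male signals were 97.3, 242, 402 and 50.3 intensity units, and female signals 14.5, 14.8, 6.23 and 14.7. Males 3 and 2 stood well above males 1 and 4, and the males spanned 3.03 on the log2 scale (mean 0.41 ± 1.38, SD, n = 4). The bound was 10.0-fold. SBRGG_57002 also varied among males, from 29.7 in male 1 to 68.0 in male 2, with 42.9 and 49.7 in males 3 and 4. Its females were at 11.7, 5.41, 8.36 and 14.9, and by the same bound the signal was 3.24-fold higher in males.

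SBRGG_06876 was tight in males, at 29.4, 31.9, 25.3 and 22.6 intensity units, against 11.4, 4.73, 9.77 and 9.30 in females. The raw median of the spot, before background subtraction and scaling, averaged 66.6 ± 4.11 in the males against 51.4 ± 4.03 in the females (SD, n = 4 per sex). The bound was 1.92-fold. The other members of this set were dim as well. Males reached 15.6 to 24.04 intensity units for SBRGG_50152, 20.8 to 24.1 for SBRGG_23311, 23.5 to 32.6 for SBRGG_58020 and 24.2 to 31.5 for SBRGG_31871. Their females read 6.08 to 10.6, 5.06 to 14.4, 11.6 to 13.5 and 9.92 to 21.1. By the bound male signal was 1.28-, 1.58-, 1.85- and 1.63-fold higher in that order. By the software's other flag, that a signal is positive and significant against its background, none of the 8 was negative in every female (0 of 8). Each of the 8 was thus positive by that flag in at least 1 female, which does not show signal in all females. Absence in females is not shown either.

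Among the 16 members measured in 1 to 3 females, SBRGG_40136 had the widest gap, 1.32. Its males stood at -0.74, -0.42, -1.07 and -1.20 on the log2 scale and its females at -2.76, -3.36, -2.51 and -2.60, with 3 females above background. SBRGG_44619, above background in 1 female, had males at -1.33, -0.999, -1.11 and -1.62 and females at -2.87, -2.78, -3.07 and -3.20. Both sexes were narrow in this member, with an SD of 0.28 in males and 0.19 in females.

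SBRGG_43949 was above background in 2 females and had the widest male range of the 60, 3.20 on the log2 scale. Males read 63.3, 161, 497 and 61.2 intensity units and females 31.4, 23.3, 29.3 and 15.4. Male 3 was again highest and male 2 next, the order seen in SBRGG_59850. After scaling, the lowest male was male 1, which was 2.05-fold above the highest female, female 2. SBRGG_43949 and SBRGG_59850 were the only 2 members whose males spanned over 2 on the log2 scale. The dimmest partly measured members were SBRGG_42883, at 17.5 to 21.2 intensity units in males and 6.02 to 13.0 in females, and SBRGG_61074, at 17.1 to 22.8 and 9.58 to 14.4. In each of them 1 female was above background.

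The 36 members measured on all 8 arrays differed by 1.59- to 4.67-fold between the means of the sexes, with a median of 2.11-fold, and 21 of them exceeded 2-fold. SBRGG_33996 had the widest gap of this set, 1.09. Its signal was 533, 404, 309 and 606 intensity units in males and 173, 101, 146 and 160 in females. The log2 means were 2.01 ± 0.39 and 0.27 ± 0.15 (SD, n = 4 each), a 3.34-fold higher signal in males, and the males varied more than the females.

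SBRGG_11747 was the brightest member. Males read 5088, 5091, 6896 and 5496 intensity units and females 2364, 1704, 2563 and 2721. The females agreed closely after scaling, with an SD of 0.09 on the log2 scale against 0.28 in males, and the male mean was 2.58-fold higher. SBRGG_46004 stood at 421, 218, 222 and 233 in males and 114, 96.7, 126 and 105 in females, where male 1 was apart from the other males. SBRGG_51963 stood at 116, 84.6, 91.6 and 105 in males and 22.0, 35.7, 54.8 and 41.2 in females. SBRGG_59307 had the narrowest males of the 60, at 0.29, 0.32, 0.28 and 0.41 on the log2 scale, with females at -0.50, -0.85, -1.03 and -0.90.

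**Figure D3:**
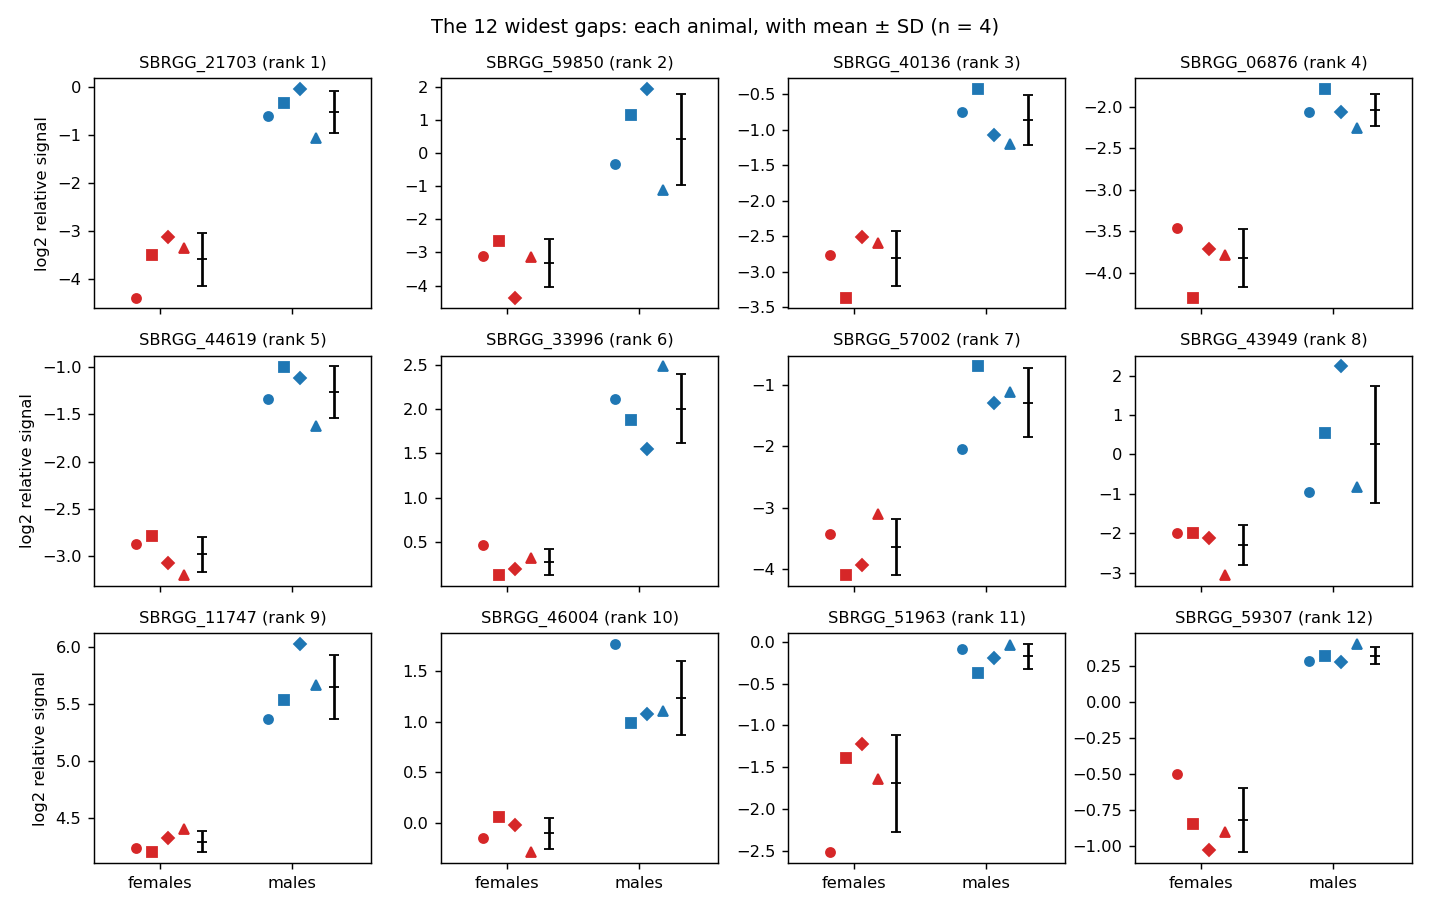
The 12 members with the widest gap, each animal as a point, in log2 relative signal. Circle, square, diamond and upright triangle are replicates 1 to 4 of each sex, the bar is mean ± SD (n = 4), and each panel has its own vertical scale. SBRGG_59850 and SBRGG_43949 have the widest spread of males, with male 3 (diamond) highest.

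SBRGG_28786 and SBRGG_42854 were the next brightest after SBRGG_11747. In SBRGG_28786 the males were nearly equal, at 3.72, 3.83, 3.86 and 3.86 on the log2 scale, and the females lay at 2.54, 3.16, 2.84 and 1.89, with female 4 lowest. In SBRGG_42854 the females were nearly equal, at 2.97, 3.03, 2.96 and 2.95, and the males lay at 3.81, 3.55, 3.91 and 3.84. Mean differences were smallest in SBRGG_29316, SBRGG_41766 and SBRGG_39428, with male signal 1.59-, 1.61- and 1.61-fold higher. SDs within a sex ran from 0.11 to 0.29 in these 3. The largest was that of the males in SBRGG_29316, where male 4 stood apart at 2.85 and the others at 2.24 to 2.31.

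Spread between animals of a sex differed from member to member. Females varied more than males in 36 of the 60 members and in 59.5% of eligible probes. Of the 60, 6 had females that spanned over 2 on the log2 scale. One of them, singled out after its values were seen, is SBRGG_20660, whose females stood at -2.75, 0.98, 0.96 and 0.82 and males at 1.57, 2.12, 1.49 and 1.83. Its mean difference of 1.75 fell to 0.83 without female 1. Over all 60, the array that closed the gap was not one animal in particular. The lowest male was male 1 in 17 members, male 2 in 16, male 3 in 16 and male 4 in 11, and the highest female was female 1 in 16, female 2 in 18, female 3 in 12 and female 4 in 14. Over eligible probes male 4 was lowest in 5485 of 27561. It was the lowest male in the members ranked 1 to 5 by gap. In those with no female well above background, male 4 was lowest in 5, male 1 in 3 and males 2 and 3 in 0.

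Each member rests on 1 spot per array, so no repeated spot measures its technical error. The scanner software gives an error for every processed signal, and these errors, taken for the 2 spots that bound the gap and combined, had a median of 0.24 on the log2 scale. The median gap was 0.53. Gaps were within 2 such errors in 24 members and over 2 in 36. In the members with no female well above background the median error was 0.50. In SBRGG_58020 and SBRGG_31871 the gaps, 0.46 and 0.45, were below the errors, 0.75 and 0.50. The gap chose the members and the spot errors leave out the differences between animals, so this sets no member apart.

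The raw median spot signal is neither background-subtracted nor scaled between arrays. On that measure the males lay above every female in 48 of the 60 members, and in 0.548% of eligible probes. The same spots on the same arrays chose the members for this separation, so the difference between these shares carries no test. Of the 12 that overlapped, 6 were above background in all 4 females, 4 in 1 to 3 females and 2 in none. SBRGG_61074, SBRGG_58020 and SBRGG_31871 are among the dim members named above, with raw male means of 64.0, 61.1 and 64.0 against female means of 57.0, 54.1 and 55.8 intensity units. The size of the differences also depended on how the signal was treated. The normexp setting changed the spot measure, the background correction and the added offset together. Which of these changed the differences was not tested. With normexp correction of the median spot signal and an offset of 50 the median difference of the members was 0.61 in place of 1.15. Of the 60, 49 stayed separated, against 1.81% of eligible probes, and these shares too follow from the choice. In the members measured on all 8 arrays the median went from 1.08 to 0.69, and in those with no female above background from 1.53 to 0.30. SBRGG_11747 moved little, from 1.37 to 1.31, SBRGG_21703 went from 3.07 to 1.13 and SBRGG_06876 from 1.78 to 0.33.

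**Figure D4:**
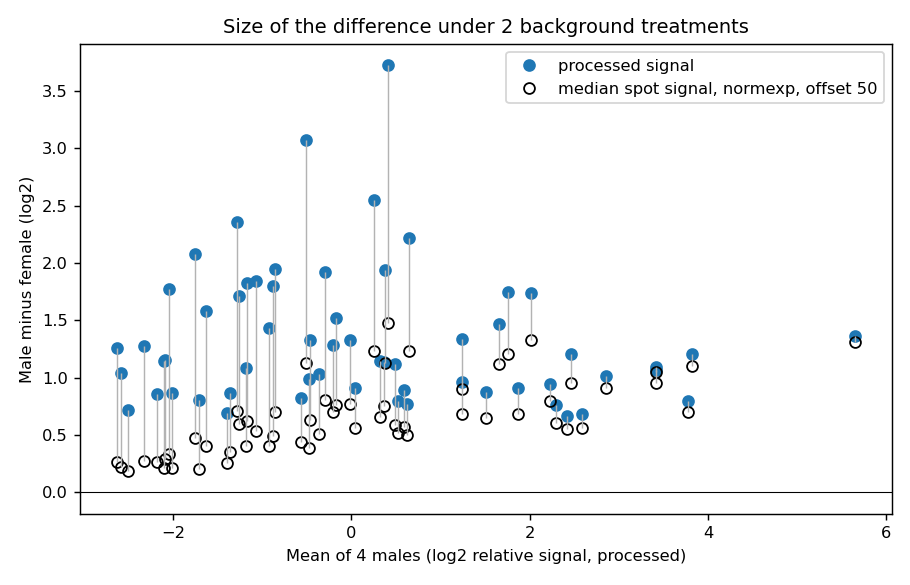
Male minus female difference of the 60 members in log2, against the male mean in log2 relative signal. Filled circles are the processed signal, open circles the median spot signal after normexp with an offset of 50, and lines join the same member. SBRGG_59850 went from 3.72 to 1.48, SBRGG_06876 from 1.78 to 0.33 and the brightest member, SBRGG_11747, from 1.37 to 1.31.

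In the limma fit over all 32852 tested probes 5 were called higher in males at an adjusted p under 0.05, which is 0.0152%. All 5 are members, namely SBRGG_21703, SBRGG_40136, SBRGG_06876, SBRGG_44619 and SBRGG_33996, ranked 1 and 3 to 6 by gap. At an unadjusted p under 0.05 limma placed 59 of the 60 members and 2.94% of tested probes higher in males. The rule used this contrast, so nothing is read from these numbers. SBRGG_59850, second by gap, was not called, and its males had an SD of 1.38. With each array left out in turn the calls of SBRGG_40136 and SBRGG_33996 were lost in 8 of 8 fits, that of SBRGG_06876 in 7 (kept without female 2), that of SBRGG_44619 in 6 (kept without female 2 or male 4) and that of SBRGG_21703 in 3 (without male 1, 2 or 3). Under normexp all 5 calls were lost and 1 other member, SBRGG_11747, was called. Median scaling kept all 5. Quantile normalization and the authors' table lost the call of SBRGG_06876 (limma adjusted p 0.074 and 0.076) and gained SBRGG_11747. An intensity trend with robust estimation lost those of SBRGG_40136 and SBRGG_06876 (limma adjusted p 0.054 and 0.107) and also gained SBRGG_11747. With slide row as a block 0.0122% of tested probes and 3 members were called, SBRGG_21703, SBRGG_44619 and SBRGG_11747, so 3 of the 5 calls were lost. No member was called without male 1, male 2 or male 3, or with slide column as a block. The count was 0 in each of these fits, and 0% of tested probes in the last. The column block left the differences of the 5 members unchanged. It fits more terms to the same 8 arrays, so less is left to estimate the spread. Why the calls were lost there was not tested.

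Slide row is a contrast that the layout keeps apart from sex, although a wide gap leaves less room for spread within a sex. In a limma fit of row 2 against row 1 with sex as a covariate 15 of 32852 probes were called, 0.0457%, and none of the members (0 of 60). At an unadjusted p under 0.05 the row effect was found in 1 member, SBRGG_50887, and in 14% of tested probes. Split by row, with 2 animals per sex in each, the members' median difference was 1.04 in row 1 and 1.25 in row 2. It was larger in row 1 for 29 members and in row 2 for 31. Over eligible probes the medians were 0.0003 and 0.08, and the difference was larger in row 1 for 12670 and in row 2 for 14891. The rule makes every member's difference positive in both rows, so a difference in each row carries no test.

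Position on the array was examined as well. The 8 nearest spots of a member differed between the sexes by a median of -0.01 over the members, against -0.02 over eligible probes. Single values ran from -0.64 to 0.59 over the members and from -1.29 to 1.93 over eligible probes. When values were corrected by the median deviation of the 24 nearest spots, 58 of the 60 stayed separated. The other members, SBRGG_47866 and SBRGG_29316, then had gaps of -0.28 and -0.16. Of eligible probes 2.47% were separated after this correction, and these shares follow from the choice. No member had another among its 8 nearest spots (0 of 60). Members lay in 49 of the 164 spot columns. Spot column 51, noticed after the positions were seen, held 5 of them, SBRGG_57002, SBRGG_11747, SBRGG_11482, SBRGG_42854 and SBRGG_59394, and no other column held more than 2. The 175 eligible probes of that column had a median difference of 0.04, and medians of single columns ran from -0.06 to 0.14. A gap above 0 was found in 5.14% of that column's eligible probes, against 2.59% of all. The 5 members, which have a gap above 0 by the rule, are counted in that share. The column was singled out for holding them, so nothing is read from the difference. Whether spot column has a part in these 5 members was not tested.

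Which probes make up the 60 depended on the animals included, on the treatment of signal and background and on the detection filter. Quantile normalization and the authors' deposited table each kept 56 of the 60 among the widest gaps, and median scaling kept 57. In the authors' table, made from the same arrays, every male lay above every female in all 60. Leaving out 1 array kept between 27 (without female 1) and 38 (without female 2 or 3). All 60 stayed separated each time, as they must, since a gap cannot narrow with fewer arrays. Other probes gained gaps above 0, which were then found in 3.63% to 5.47% of eligible probes, against 2.59% with all arrays. Normexp kept 32, the correction by the 24 nearest spots 43, no detection filter 38 and a filter that needs all 8 arrays above background 36. The last number is fixed by that filter, which keeps the 36 members measured on all 8 arrays and adds no probe. Ranking separated probes by the difference of means instead of the gap kept 27.

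**Figure D5:**
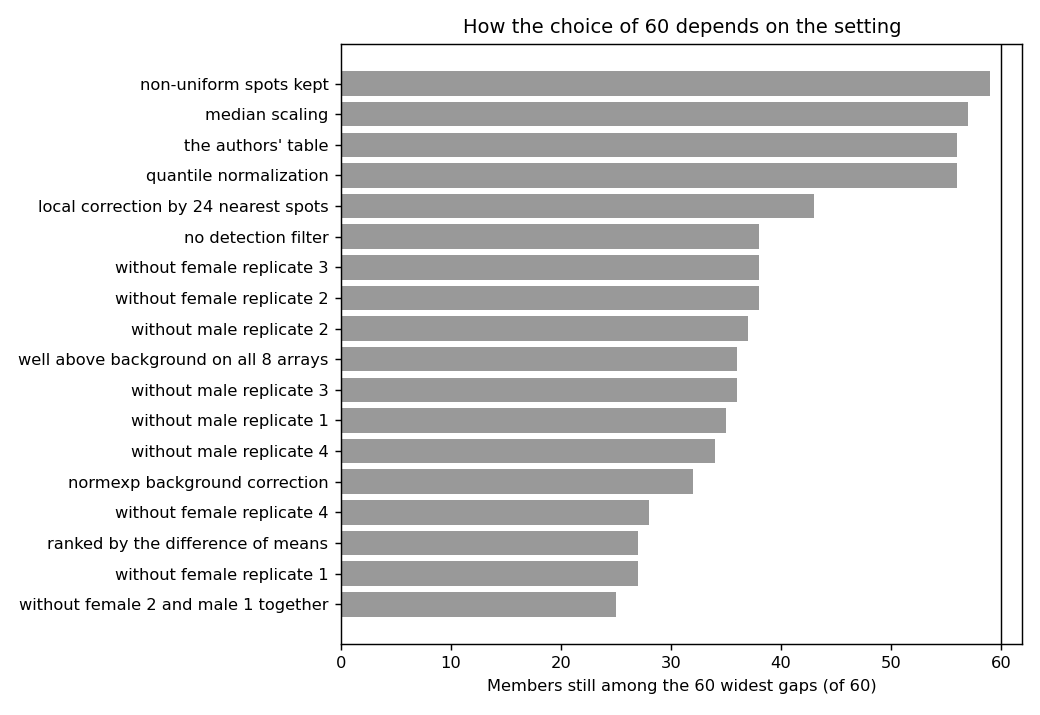
Number of the 60 members that remain among the 60 widest gaps under each other setting. Other scalings kept 56 or 57, the local correction 43, no detection filter 38 and normexp 32. Leaving out single arrays kept 27 to 38. A filter on all 8 arrays kept 36, a number fixed by the filter itself.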

How the data were processed

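Spot intensity values deposited for each array were made with Agilent Feature Extraction 10.7.1.1, which subtracted background and removed a spatial trend, per the file headers; arrays were not scaled to each other. Besides the processed signal, its error, the median spot and background signals and 0 or 1 flags (other values) were used as deposited. A log2 table of the same arrays was deposited by the authors too. For it the submitters' processing notes name Partek; further steps were not given in the sources used here. Columns of that table had the same median (4.48) and correlated with their own array's log2 signal at r from 0.99926 to 0.99998.

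Members and lists were chosen with earlier results of these data known. For limma 3.58.1 (R 4.3.3, lmFit and eBayes, Benjamini-Hochberg adjustment, two-sided, no covariates), non-uniform spots were left out, spots of a probe averaged, and probes well above background on at least 4 of 8 arrays tested. The fit was tested on simulated data. Python 3.11.15, pandas 2.3.3, numpy 2.4.6 and matplotlib 3.10.9 were used. Named members are the 12 widest gaps, those with no female above background, those called, the extremes of level, difference and male range (3 each), and the last 2 inside the limit. Gene lists could not be used because targets have no names here. Animals within a sex are the replicates, and their number limits the precision.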

Additional observations from a re-analysis of the deposited data

Results flagged for a closer look

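In 52 sets of 4 animals examined, 8 single readings lay far from the others of the same sex. Chance alone would mark about 1 in 20 sets whose values had not been selected. Most sets here are of named members, chosen by these same values, so the 8 cannot be set against that share. For the 75th percentile of signal, female 2 was low among females at 93.05 intensity units. Among females, female 4 was low for SBRGG_43949 at -3.065 (log2 relative signal), and female 1 was low for SBRGG_23311 at -4.637 and for SBRGG_29316 at 1.56. Among males, male 1 was high for SBRGG_46004 at 1.775 and male 2 was high for SBRGG_50152 at -2.191. Male 4 was low for SBRGG_61074 at -2.661 and high for SBRGG_29316 at 2.85. No explanation of these values was tested.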

How the results depend on the processing

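No result reversed, but where an array is left out the separation of the sexes fixes the direction. The fit without female 2 and male 1 and the correction by the 24 nearest spots were chosen after seeing the data. Of the 60 members, 32 stayed among the 60 widest gaps under normexp, 25 without female 2 and male 1, 38 without the detection filter, 36 when all 8 arrays had to be above background and 27 by difference of means, and 27 to 38 when 1 array was left out. The 36 are the members measured on all 8 arrays, which that filter must keep. Under normexp the members' median gap was 0.21 and the median difference 0.61. Against 5 probes called higher in males, all members, limma called 1 under normexp (a member, but 0 of the 5), 1 without a filter (1 of the 5), 3 after the local correction (3 of the 5), 2 with all 8 arrays above background (2 members, 1 of the 5), 8 with array weights (8 members, 5 of the 5), and 1 without female 2 and male 1 (0 members). The filter on all 8 arrays left just SBRGG_33996 of the 5 to be tested, and it was called. Quantile normalization and the authors' table each gave 5 calls (5 members, 4 of the 5). An intensity trend with robust estimation gave 4 (4 members, 3 of the 5). With slide column as a block, which fits more terms, limma called 0 (0 members), and with slide row as a block 3 members (2 of the 5). Leaving out 1 array gave 0 to 4 probes and 0 to 3 members. By the software's significance flag, 0 members lacked the flag in every female, in place of 8 by the flag for well above background. The planned look at other probes of the members' targets was not run, since each target has 1 probe. No paired analysis was possible because the labels give no number shared between females and males; the block by slide column, which holds 1 female and 1 male each, pairs them by place on the slide only. Signals near background limit the 24 members not measured on all 8 arrays. Of the other members, 3 also lost their separation under normexp and 6 overlapped in raw median spot signal.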
